A study of Mus musculus with 4 samples.

Results

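YAP sites at closely paired genes were peaks from ChIP-seq (sequencing of the DNA precipitated with an antibody) of the YAP co-activator in mouse epidermis, whose summit lay within 1 kb of an end of at least 2 distinct protein-coding genes. The summit is the highest point of a peak. The rule was met by 423 of 14879 peaks in the epidermis of Bmal1 knockout mice (KO; 2.84%, exact 95% interval 2.58 to 3.12) and by 1276 of 36576 peaks in that of Bmal1 wild-type mice (WT; 3.49%, 3.30 to 3.68). The name fits the genes better than the place of the summit: 101 of 423 KO summits (23.9%) and 263 of 1276 WT summits (20.6%) lay in the gap between both genes, and most others lay just inside 1 of them. The animals were adults of 18 to 25 weeks, killed at Zeitgeber time 4 (ZT4, 4 h after lights on). The labels write the knockout both as Bmal1 KO and as Bmal1cKO, and the sources used here name neither a Cre line nor the cells in which the gene was deleted. Each genotype had 1 pooled peak list, so there was no replicate error, no test was made, and every interval covers counting error only. The genes named here by YAP sites do not check the genotype or the tissue labels, since YAP sites do not read out transcripts.

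YAP is the co-activator held back by the Hippo kinases. It has no DNA-binding domain of its own and reaches DNA mainly through the TEAD transcription factors, often at enhancers and often beside AP-1 factors. In keratinocytes it is known for its part in growth, stem cell upkeep and wound repair. BMAL1, the product of Arntl, pairs with CLOCK to switch on the genes of the circadian feedback loop. Genes that lie head to head, on opposite strands with their starts close together, share 1 stretch of promoter DNA, called a bidirectional promoter. In mammals many genes of DNA repair, of protein folding and of mitochondrial translation have this layout, and such promoters are typically rich in G and C and in ETS and NRF1 motifs, with few TATA boxes.

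The promoters of 3 head-to-head sites are printed here, those with the most WT reads among sites at which the RefSeq window of the nearest start held the summit and did not reach the partner gene. They carry the letters of the TEAD motif in 2 cases and lack them in the third. Sequences are from RefSeq, build GRCm38.p6, run 5′ to 3′ along the named gene from 250 bases before its start to 30 bases after it. Capitals mark motif letters on either strand. The TEAD motif was read as GGAATG. The ETS motif was read as CCGGAA and the CCAAT box by its name. AP-1, E-box and NRF1 motifs were searched too and do not occur in the sequences printed.
Pfdn6, chr17:33940314-33940593, minus strand: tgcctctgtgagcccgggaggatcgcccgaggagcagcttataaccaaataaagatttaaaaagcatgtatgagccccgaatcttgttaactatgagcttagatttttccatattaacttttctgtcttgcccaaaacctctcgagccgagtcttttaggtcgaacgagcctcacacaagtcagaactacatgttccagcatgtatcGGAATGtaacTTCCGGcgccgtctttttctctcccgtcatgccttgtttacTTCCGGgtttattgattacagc
Ska2, chr11:87109011-87109290, plus strand: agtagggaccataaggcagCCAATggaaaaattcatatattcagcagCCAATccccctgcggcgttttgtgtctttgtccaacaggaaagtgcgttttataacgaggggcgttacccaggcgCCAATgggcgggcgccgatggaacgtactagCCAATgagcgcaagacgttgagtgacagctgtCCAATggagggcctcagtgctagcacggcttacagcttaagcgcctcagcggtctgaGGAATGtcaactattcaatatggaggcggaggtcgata
Pdcd10, chr3:75556823-75557102, minus strand: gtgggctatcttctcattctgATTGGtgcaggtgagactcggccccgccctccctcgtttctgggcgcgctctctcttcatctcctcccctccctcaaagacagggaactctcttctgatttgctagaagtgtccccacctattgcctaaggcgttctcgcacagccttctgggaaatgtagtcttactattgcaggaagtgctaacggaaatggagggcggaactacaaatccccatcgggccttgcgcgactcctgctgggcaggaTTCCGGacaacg
The site at Pfdn6, a prefoldin subunit gene that faces the nucleolar protein gene Wdr46, had the most reads of all WT sites at closely paired genes, 164 in KO and 262 in WT. Its summit was at base 73 of the window and the TEAD letters started at base 208. The stretch printed for Ska2, a kinetochore protein whose partner is the cell cycle gene Prr11, ended 1 base before the summit, which the full window held. Its TEAD letters started at base 243, with their centre 35.5 bp from the summit. It also held 5 CCAAT boxes. The window of Pdcd10, which encodes a scaffold protein and faces the serpin gene Serpini1, had 69 KO and 155 WT reads with the summit 16 bp from the start, and held 1 ETS and 1 CCAAT match but no TEAD letters.

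The next stretches run from 30 bases inside 1 gene to 30 bases inside the other, on the plus strand, and show whole head-to-head gaps. They are the 4 kept and the 4 WT-only head-to-head sites with the most WT reads among those whose RefSeq starts were the ends of both gene spans, whose stretch was covered by 1 RefSeq window and whose summit lay in the stretch or within 20 bp of it. The first 4 were kept, which means that they overlapped a KO peak, and the last 4 were seen in WT only.
Fam216a to Gpn3, chr5:122372313-122372537: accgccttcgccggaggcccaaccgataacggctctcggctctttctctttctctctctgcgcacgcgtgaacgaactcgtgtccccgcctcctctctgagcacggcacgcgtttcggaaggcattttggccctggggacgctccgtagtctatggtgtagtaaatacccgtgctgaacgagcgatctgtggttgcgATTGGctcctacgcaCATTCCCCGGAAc
Ngef to Neu2, chr1:87573841-87574056: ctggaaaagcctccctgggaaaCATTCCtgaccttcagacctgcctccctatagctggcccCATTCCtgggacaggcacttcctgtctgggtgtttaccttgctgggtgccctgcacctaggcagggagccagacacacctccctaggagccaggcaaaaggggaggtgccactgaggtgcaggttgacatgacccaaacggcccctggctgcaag
Tmem129 to Tacc3, chr5:33657948-33658157: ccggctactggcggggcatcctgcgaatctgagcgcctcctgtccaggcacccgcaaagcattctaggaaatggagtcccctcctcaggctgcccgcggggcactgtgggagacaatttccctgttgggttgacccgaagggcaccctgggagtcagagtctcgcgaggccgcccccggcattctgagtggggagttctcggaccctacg
1810024B03Rik to Snrnp200, chr2:127208251-127208415: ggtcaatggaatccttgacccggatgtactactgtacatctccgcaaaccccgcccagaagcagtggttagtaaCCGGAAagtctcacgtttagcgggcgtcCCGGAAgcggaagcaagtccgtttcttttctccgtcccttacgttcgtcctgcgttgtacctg
Moap1 to Tmem251, chr12:102743632-102743748: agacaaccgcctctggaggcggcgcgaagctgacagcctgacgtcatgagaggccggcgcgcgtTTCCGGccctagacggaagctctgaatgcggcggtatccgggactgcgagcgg
Mrpl40 to Hira, chr16:18876608-18876779: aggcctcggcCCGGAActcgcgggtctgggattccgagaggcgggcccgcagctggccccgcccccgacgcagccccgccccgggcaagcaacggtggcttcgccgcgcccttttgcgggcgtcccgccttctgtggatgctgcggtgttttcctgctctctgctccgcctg
Rpl9 to Lias, chr5:65391402-65391526: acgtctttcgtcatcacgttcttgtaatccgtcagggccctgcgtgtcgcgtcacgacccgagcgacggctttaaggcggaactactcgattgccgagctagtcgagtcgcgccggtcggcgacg
Rpl36al to Mgat2, chr12:69184038-69184187: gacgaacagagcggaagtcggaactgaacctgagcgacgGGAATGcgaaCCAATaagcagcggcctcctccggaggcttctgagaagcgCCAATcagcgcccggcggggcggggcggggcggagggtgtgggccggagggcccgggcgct
The stretch between Fam216a and Gpn3, a GTPase gene, had 116 KO and 195 WT reads, and its TEAD letters had their centre 26.5 bp from the summit, directly beside an ETS match. The stretch between Ngef, a gene of a guanine nucleotide exchange factor, and Neu2, a sialidase gene, held the TEAD letters at 2 places and had 52 KO and 108 WT reads. The stretch at Tacc3, a mitotic spindle gene, had 66 KO and 100 WT reads and none of the letters searched. The stretch at Snrnp200, a spliceosome helicase gene, had 51 KO and 88 WT reads and 2 ETS matches but no TEAD letters. The WT-only stretch at Moap1, which encodes a modulator of apoptosis, had 75 WT reads and 1 ETS match. The stretch at Hira, a histone chaperone gene, and Mrpl40, a mitochondrial ribosomal protein gene, also had 75 WT reads and 1 ETS match. The stretch between Rpl9, a ribosomal protein gene, and Lias, the lipoic acid synthase gene, had 70 WT reads and none of the letters searched. The stretch at Mgat2, which encodes a glycosyltransferase of the Golgi, had 69 WT reads, the TEAD letters at 1 place and 2 CCAAT boxes. TEAD letters were thus in 2 of the 4 kept and in 1 of the 4 WT-only stretches. A match is a description of letters and not a mapped binding site.

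YAP sites were concentrated where genes meet. The stretches within 1 kb of an end of at least 2 genes added up to 5.82 Mb, 0.224% of the 2600 Mb that the annotation spans, so that KO summits were 12.7 times and WT summits 15.6 times as dense there as over the whole span. The ends of single genes shared in this: the stretches within 1 kb of 1 gene only made up 2.79% of the span and held 2139 KO peaks (14.4%) and 6613 WT peaks (18.1%), which is 5.15 and 6.48 times the density of the whole span. The WT list held 3.02 times as many sites at closely paired genes as the KO list, and 2.46 times as many peaks in all. The counts near 1 gene, 2139 in KO and 6613 in WT, differed by a factor similar to that at closely paired genes. The sites at closely paired genes touched 804 of 21631 protein-coding genes in KO (3.72%) and 2345 in WT (10.8%). At 5 KO and 22 WT sites, 3 genes lay within 1 kb, and 76 pairs of genes were nearest to 2 WT sites each. The share varied among chromosomes. Chromosome 17 had 5.20% of its KO peaks and 6.08% of its WT peaks at closely paired genes, chromosome 7 had 5.79% and 5.91%, and chromosome 18 had 0.825% and 1.27%.

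Head-to-head pairs made up most of the sites. Strand was known from the RefSeq promoter table for 17274 of 21631 genes (79.9%), which gave the arrangement of the nearest pair at 310 KO and 975 WT sites. Of these, 231 KO sites (74.5%, 69.3 to 79.3) and 694 WT sites (71.2%, 68.2 to 74.0) lay at head-to-head pairs. Head-to-tail pairs, in which 1 gene follows the other on the same strand, took 62 KO sites (20%) and 204 WT sites (20.9%). Tail-to-tail pairs took 9 KO sites (2.90%) and 26 WT sites (2.67%). The rest were common starts on 1 strand, at 4 KO and 24 WT sites, a start beside an end on opposite strands, at 4 and 23, and common ends on 1 strand, at 4 WT sites. Among all 3129 close pairs of known strand, with ends at most 2 kb apart, 32.1% were head-to-head, 28.8% head-to-tail and 33.5% tail-to-tail.

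Seen from the genes, 223 of 1005 head-to-head pairs (22.2%, 19.7 to 24.9) had a KO summit within 1 kb of both genes, and 661 (65.8%, 62.7 to 68.7) had a WT summit there. Head-to-tail pairs had one in 62 of 902 cases in KO (6.87%, 5.31 to 8.73) and in 205 cases in WT (22.7%, 20.03 to 25.6). Tail-to-tail pairs had one in 11 of 1049 cases in KO (1.05%, 0.525 to 1.87) and in 26 cases in WT (2.48%, 1.63 to 3.61). The intervals of the 3 arrangements did not overlap in either genotype. Over all 4810 close pairs the shares were 8.65% in KO and 25.7% in WT. The gap differed between the arrangements, and the order was the same among pairs with ends at most 500 bp apart. There 24.3% (21.3 to 27.5) of 778 head-to-head pairs had a KO summit and 74.0% (70.8 to 77.1) a WT summit, against 13.1% (9.47 to 17.5) and 41.3% (35.6 to 47.1) of 298 head-to-tail pairs and 1.61% (0.699 to 3.15) and 4.23% (2.64 to 6.399) of 496 tail-to-tail pairs. Head-to-head pairs more than 500 and at most 1000 bp apart had a summit in 22.9% (15.7 to 31.5) of cases in KO and 58.5% (49.04 to 67.5) in WT, and those more than 1000 and at most 2000 bp apart in 6.42% and 14.7%. The stretch that lies within 1 kb of both genes shrinks as the gap widens, so the membership rule itself lowers the share in wider gaps, and in KO the intervals of the first pair of bins overlapped.

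**Figure D1:**
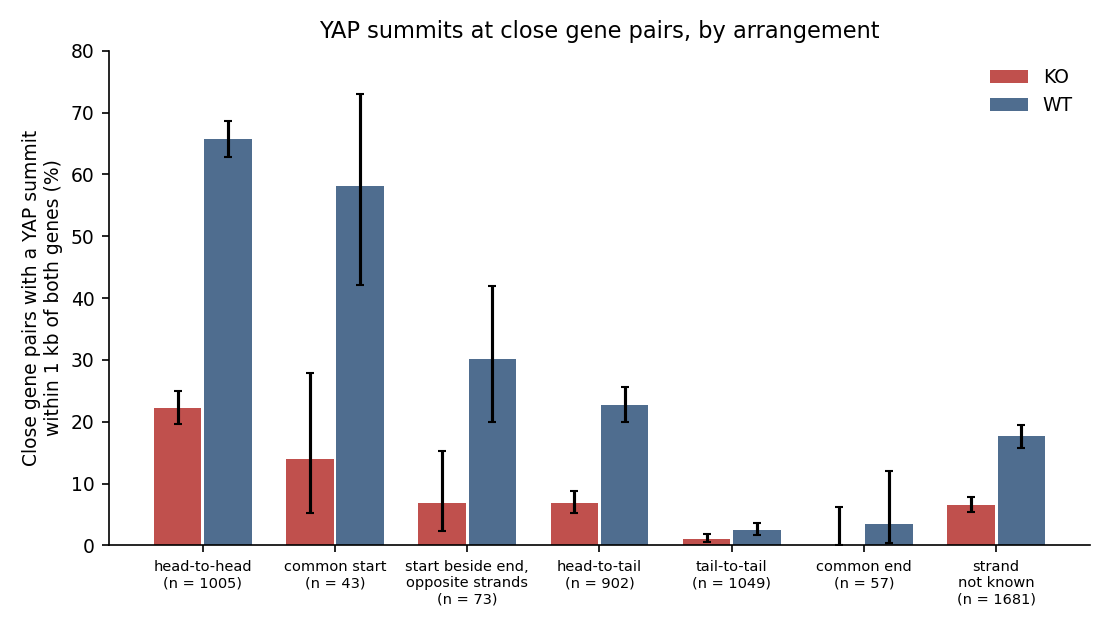
Share of close gene pairs (ends at most 2 kb apart) with a YAP summit within 1 kb of both genes, in percent, by arrangement of the pair, for KO (left bar) and WT (right bar). Error bars are exact 95% binomial intervals, which cover counting error only, and n is the number of pairs. Head-to-head pairs stand at 22.2% in KO and 65.8% in WT, and tail-to-tail pairs at 1.05% and 2.48%.

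Gene starts in head-to-head pairs also carried a YAP summit more often than other starts. A summit within 1 kb of the start was found for 471 of 1993 such starts in KO (23.6%, 21.8 to 25.6) and for 1384 in WT (69.4%, 67.4 to 71.5). Of 11567 starts of genes in no close pair, 1055 had one in KO (9.12%, 8.60 to 9.66) and 3184 in WT (27.5%, 26.7 to 28.4). The intervals did not overlap. Starts of genes in other close pairs were intermediate, with 14.0% in KO and 44.2% in WT. A shared stretch counts for both of its starts, so these starts are not independent of each other.

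The summits sat close to both starts of a head-to-head pair. In KO the median distance was 126 bp to the nearest gene end and 286 bp to the second, and in WT 107 bp and 254.5 bp. Both ends lay within 250 bp of the summit at 104 of 231 KO sites (45.0%) and at 342 of 694 WT sites (49.3%). The gap between heads that did not overlap had a median of 104 bp in KO and 91.5 bp in WT. The summit was in the gap at 41 KO sites (17.7%) and 103 WT sites (14.8%), inside 1 gene at 160 and 494, and inside both overlapping genes at 30 and 97. At head-to-tail pairs the second gene was farther, at a median of 486 bp in KO and 493 bp in WT. There the start of the downstream gene was nearer to the summit than the end of the upstream gene at 42 of 62 KO sites (67.7%, 54.7 to 79.1) and at 168 of 204 WT sites (82.4%, 76.4 to 87.3). The summit was a median of 231.5 bp from that start and 421 bp from that end in KO, and 170.5 bp and 430.5 bp in WT.

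**Figure D2:**
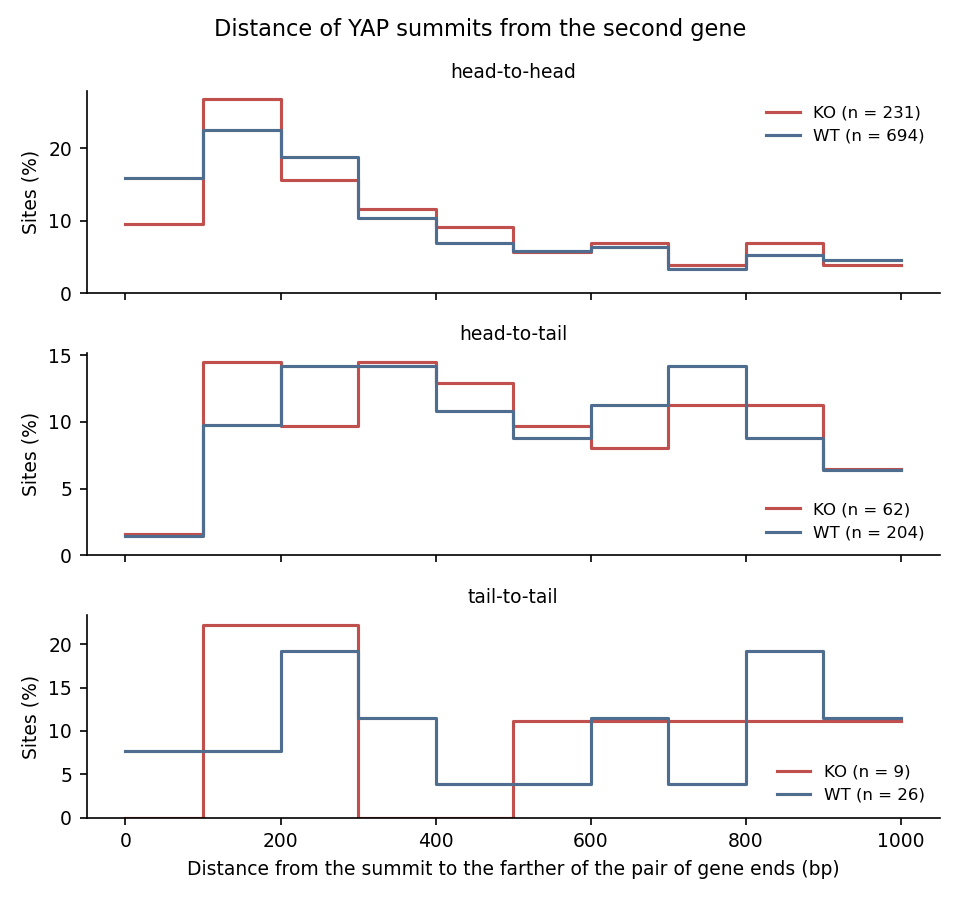
Distance in bp from the summit to the farther of the nearest pair of gene ends, as the share of sites in bins of 100 bp, for KO and WT, by arrangement. Head-to-head sites crowd at short distances, with medians of 286 bp in KO and 254.5 bp in WT, whereas head-to-tail sites spread over the whole range, with medians of 486 bp and 493 bp. The tail-to-tail panel rests on 9 KO and 26 WT sites.

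Sites at closely paired genes were of ordinary strength. The deposited fold and p of each peak gave back the whole number of ChIP reads at its summit, in a unit that had the same even background of 9.63 reads in both pools. Summit reads had a median of 49 in KO (quartiles 41 and 59), where other peaks had 52, and of 59.5 in WT (49 and 75), where other peaks had 61. The sites were broader in WT: the median width was 459 bp in KO and 626 bp in WT, against 448 bp and 513 bp for other peaks. Sites near 1 gene shared part of this, with medians of 454 bp in KO and 581 bp in WT. Sites at closely paired genes were scarce among the strongest peaks, with 1.996% of the top decile of WT peaks by reads, against 4.70% in decile 6 and 2.84% in decile 1. Sites near 1 gene were also scarcer there, with 10.99% of the top decile, 20.4% of decile 6 and 19.0% of decile 1. The caller's local background moved with the class of site in WT, where its median was 12.5 reads at closely paired genes and 11.05 at other peaks, while in KO it was 10.7 at both. A WT background of at least 16 reads was found at 13.8% of these sites, at 11.2% of sites near 1 gene and at 7.14% of sites with no gene end within 1 kb. The part of this background in the results was not tested.

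Most WT sites at closely paired genes were not called in KO. Of 1276, 399 (31.3%, 28.7 to 33.9) shared 1 bp or more with a KO peak and are called kept, and the other 877 are called WT-only. Over all WT peaks 39.1% were kept, and the share was 31.0% (29.9 to 32.1) at sites near 1 gene and 41.4% (40.8 to 41.9) at sites with no gene end within 1 kb. The share was thus about the same at sites near 1 gene. Kept sites had a median of 87 WT reads, from 45 to 262, and WT-only sites a median of 53, from 30 to 107. In the reverse direction, 422 of 423 KO sites (99.8%, 98.7 to 99.99) shared bases with a WT peak, and 1 (0.236%) did not, where 1.03% of all KO peaks did not. That site, chr3:95228477-95228913, lay at the overlapping heads of Cdc42se1, a CDC42 effector gene, and Mllt11, and had 37 reads in KO. These shares depend on the overlap rule and the list length: with 50% reciprocal overlap 20.5% of WT sites were kept (32.5% of other peaks) and 38.3% of KO sites were KO-only, and with as few WT peaks as KO peaks, taken by score, 73.0% of 404 WT sites were kept (77.9% of other peaks).

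The kept share followed the reads at the WT summit. From none of 82 sites under 40 WT reads, it passed through 7.80% at 50 to 59 reads, 29.9% at 60 to 69 and 78.8% at 80 to 99, to all 75 sites of 120 reads or more (lower bound 95.2%). Other WT peaks had 1.30%, 13.7%, 31.9%, 80.7% and 99.8% in the same classes. With the kept shares that other peaks had at the same numbers of reads, 34.8% of the sites would have been kept. The share seen differed from it by -3.49 percentage points (95% interval -6.03 to -0.87, with the expected share taken as fixed). With the authors' score in place of reads the share was 31.7%. The deficit thus depended on which measure of strength was used. It was not particular to closely paired genes. At sites near 1 gene 31.0% (29.9 to 32.1) were kept, against 33.4% expected from reads and 31.5% from the score. Head-to-head sites were kept in 222 of 694 cases (32.0%, 28.5 to 35.6), head-to-tail sites in 57 of 204 (27.9%, 21.9 to 34.6) and tail-to-tail sites in 8 of 26 (30.8%, 14.3 to 51.8), with intervals that overlapped. Where the heads were apart 34.6% (30.2 to 39.2) were kept, and where they overlapped 27.2% (21.8 to 33.3).

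**Figure D3:**
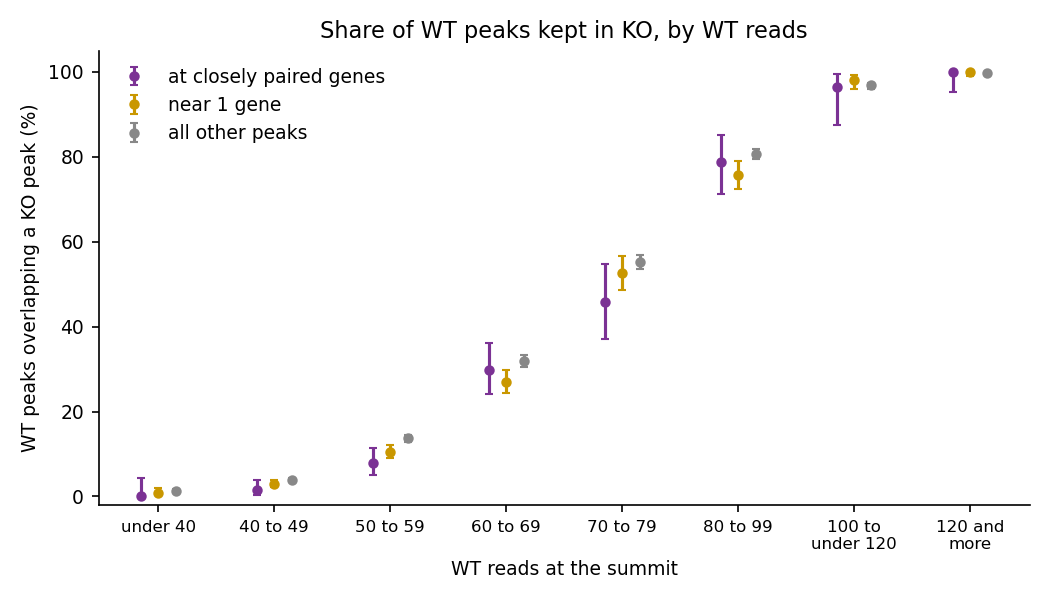
Share of WT peaks that overlapped a KO peak, in percent, by the number of WT reads at the summit, for sites at closely paired genes, sites near 1 gene and all other peaks. Error bars are exact 95% binomial intervals, which cover counting error only. All classes climb from near 0 under 40 reads to 100% or nearly so at 120 reads, and the sites at closely paired genes lie at or slightly under the others in most classes.

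Kept sites overlap a KO peak by definition, and most of their summits lay close together in both genotypes. The WT and KO summits of kept sites were a median of 44 bp apart and within 100 bp of each other at 308 of 399 sites. The overlapping KO peak with most reads was itself at closely paired genes in 393 of 399 cases.

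Some pairs carried more than 1 site. Of the 76 pairs nearest to 2 WT sites each, both sites were kept at 3, 1 at 25 and neither at 48. Near Kctd9, a gene of a potassium channel tetramerisation family, and Cdca2, a mitotic phosphatase regulator gene, a site 740 bp from the nearer end had 78 reads in KO and 156 in WT, while a site on the other side of the gap had 57 WT reads and was WT-only. Rin1, a RAS effector gene, and Brms1 had a site of 116 reads in KO and 188 in WT, beside a WT-only one of 54. Among sites with 3 genes within 1 kb, the strongest lay at Jmjd8 and Wdr24, with 54 reads in KO and 90 in WT, and at Cyb5d1 and Naa38, with 52 and 89. At Rad17, a DNA damage checkpoint gene, and Taf9, a TFIID subunit gene, a site of this kind had 46 in KO and 80 in WT. Those at Tnfsf13 and Tnfsfm13, with 83 WT reads, and at Dcst2 and Dcst1, with 77, were WT-only. Of all 22 WT sites with 3 genes within 1 kb, 6 were kept (27.3%, 10.7 to 50.2).

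Every strong site had fewer reads in KO. The 75 sites of at least 120 WT reads had a median of 81 reads in KO and 150 in WT, and the median log2 KO to WT ratio above background was -0.92 (interquartile range -1.14 to -0.77, 95% interval of the median -1.02 to -0.84). The ratio was below 0 at 75 of 75 sites, as at 3685 of 3686 strong sites in all (100% after rounding), and under -1 at 29 (38.7%), where 30.7% of all strong sites were. Other strong peaks had a median of -0.88 and those near 1 gene -0.94. The median was -0.96 (-1.09 to -0.82) at 35 head-to-head sites and -0.85 (-1.24 to -0.56) at 11 head-to-tail sites. The log2 ratio spread by 0.276 between sites (SD), against 0.222 from read counting alone. At weaker sites a KO peak had to be called for a ratio to exist, which limits how low the ratio there can be.

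**Figure D4:**
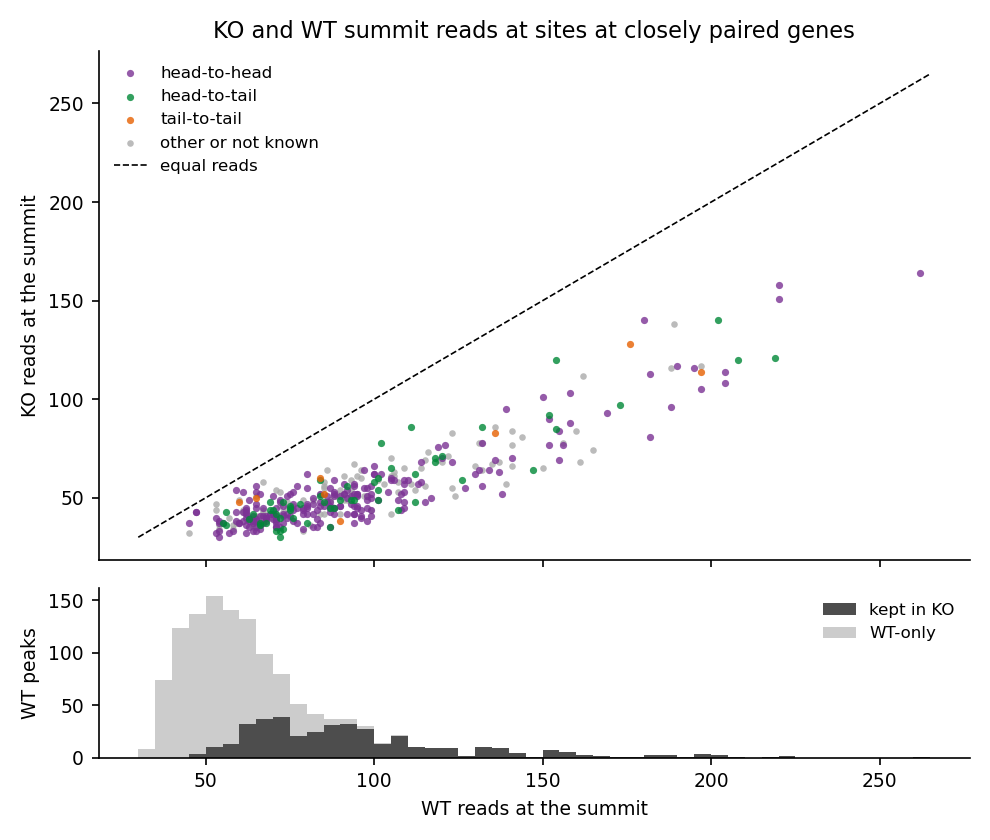
Reads at the KO summit against reads at the WT summit for the 399 kept sites at closely paired genes (upper panel, 1 point per site, coloured by arrangement, dashed line at equal reads), and the number of kept and WT-only sites by WT reads (lower panel, bins of 5 reads). Every point of 120 or more WT reads lies under the line of equal reads, and WT-only sites reach 107 WT reads at most.

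The strongest kept sites lay at genes of several basic functions. Wdr46 and Pfdn6, whose promoter is printed above, had 164 reads in KO and 262 in WT, a log2 ratio of -0.71 ± 0.151 (counting SE, as for the ratios that follow). Ska2 and Prr11 had 158 reads in KO and 220 in WT (-0.50 ± 0.159). Sars2, the mitochondrial seryl-tRNA synthetase gene, and Mrps12, a mitochondrial ribosomal protein gene, had 151 reads in KO and 220 in WT (-0.57 ± 0.161). All 3 pairs are head-to-head. The site at chr4:126162655-126163921, 14 bp from the nearer end of the head-to-tail pair Sh3d21 and Thrap3, the second a pre-mRNA processing gene, had 121 reads in KO and 219 in WT (-0.91 ± 0.175). The gap between Phykpl, an enzyme of hydroxylysine breakdown, and Col23a1, a transmembrane collagen, had 120 reads in KO and 208 in WT (-0.85 ± 0.177). Myl6b and Myl6, neighbouring genes of myosin light chains in head-to-tail order, had 140 reads in KO and 202 in WT at chr10:128492729-128494413 (-0.56 ± 0.169). KO was lower at each of these sites, by more than 3 counting SEs. These SEs cover read counting only, and the sites were chosen for their WT reads. KO was lower at 3685 of 3686 strong sites in all, so the direction does not set these sites apart.

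Other strong kept sites included Cryzl1 and Itsn1, the second an endocytic scaffold gene, with 108 reads in KO and 204 in WT (-0.98 ± 0.186). Ppp1r13l, which encodes the p53 inhibitor iASPP, and Cd3eap, which encodes an RNA polymerase I subunit, had 114 reads in KO and 204 in WT (-0.90 ± 0.182). Cds1, a gene of phospholipid synthesis, and the predicted gene Gm42134 had 105 reads in KO and 197 in WT (-0.97 ± 0.189). The strongest tail-to-tail site was at Tnfrsf12a, the gene of the receptor for the cytokine TWEAK, and Hcfc1r1, at chr17:23674563-23677784, with 114 reads in KO and 197 in WT (-0.84 ± 0.183). It was the only tail-to-tail pair among the 10 strongest kept sites.

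The strongest WT-only sites had at most 107 reads. That number was at Chmp2a, an ESCRT-III gene, and Ube2m, the NEDD8-conjugating enzyme gene, in head-to-tail order at chr7:13034160-13035026. Rhoa, the small GTPase that drives actin stress fibres, lay head to head with Tcta, directly next to it, and the site at chr9:108306015-108307076 had 103 WT reads. Elf1, an ETS factor gene, and Wbp4, a spliceosome gene, had 99. Kmt2b, a histone H3 lysine methyltransferase gene, and Zbtb32 had 96. Hdlbp and Septin2 had 95, and the 3 pairs of Sap30bp and Recql5, Tmem147 and Gapdhs, and Thyn1 and Acad8 had 94 each. Most WT peaks of this strength were kept, 80.7% of all those from 80 to 99 reads and 96.8% of those from 100 to below 120. The local background at the WT-only sites named here ran from 11.5 reads at Kmt2b to 21.6 at Sap30bp. Its median over all 1276 WT sites at closely paired genes was 12.5.

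The lowest ratios among kept sites of at least 80 WT reads were at Nfkbib, which encodes the NF-κB inhibitor IκBβ, and Sirt2, a deacetylase gene, with 38 reads in KO and 98 in WT (-1.64 ± 0.353). Mpc2, a subunit of the mitochondrial pyruvate carrier, and Dcaf6 had 37 in KO and 94 in WT (-1.62 ± 0.361). Ulk3, a kinase gene, and Scamp2 had 35 in KO and 87 in WT (-1.61 ± 0.379), and Gm46382 and Cep170b had the same numbers. Enkur and Thnsl1 had 52 in KO and 138 in WT (-1.60 ± 0.279). The highest ratio was at Hras, the small GTPase gene, and Lrrc56, with 140 reads in KO and 180 in WT (-0.39 ± 0.173). Dnase1l2, a nuclease gene of the cornifying epidermis, and E4f1 had 120 in KO and 154 in WT (-0.39 ± 0.189). Spag7 and Camta2 had 86 in KO and 111 in WT (-0.41 ± 0.231), Mitd1 and Mrpl30 62 in KO and 80 in WT (-0.43 ± 0.284), and Faap100, a Fanconi anaemia core complex gene, and Nploc4 78 in KO and 102 in WT (-0.43 ± 0.244). These extremes were picked for their values and carry no test. The summit at Faap100 and Nploc4 was also just inside the rule, 999 bp from its second gene, as was that at Rccd1 and Unc45a at 998 bp (40 reads in KO and 72 in WT). Just outside were Ppil2 and Ypel1 at 1001 bp, with 38 WT reads, and Zfyve26 and Rad51b at 1002 bp, with 75, and neither was kept.

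Genes of DNA repair and replication were often at such sites. Of 76 genes of that list, 8 had a KO site (10.5%, against 3.72% of all genes) and 28 a WT site (36.8%, against 10.8%), and 53 of the 76 were in a close pair, as were 32.6% of all genes. With any YAP peak within 1 kb of a gene end counted, 17.1% of the 76 had one in KO and 71.1% in WT. By that count all genes had 12.8% and 37.0%. Polh, the translesion polymerase gene, shared the strongest site with Xpo5, with 93 reads in KO and 169 in WT (-0.93 ± 0.204). Prkdc, the catalytic subunit of DNA-PK, and Mcm4, a subunit of the replicative helicase, lie 43 bp apart and had 57 reads in KO and 111 in WT (-1.10 ± 0.274). Fancm, a Fanconi anaemia helicase gene, had 48 in KO and 115 in WT (-1.46 ± 0.299), and Rpa3, a subunit of the single-strand binding complex, 45 in KO and 109 in WT (-1.49 ± 0.313). Brca1 and Nbr1 had 53 in KO and 65 in WT (-0.35 ± 0.321), a difference slightly larger than its counting SE. WT-only sites lay at Atr with 75 reads, at the facing starts of Atm and Npat with 56, at Pcna with 56 and at Rad51c with 54. Of the 29 WT sites of the list 9 were kept (31.0%), where 42.2% was the share of other peaks with the same reads, too few sites to set this apart. Over all WT sites at closely paired genes 31.3% were kept, against 34.8% expected from reads.

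Genes of mitochondrial translation and protein folding were also at such sites more often than the 3.72% of all genes in KO and the 10.8% in WT. Of 78 mitochondrial ribosomal protein genes, 50 were in a close pair (64.1%), 9 had a KO site (11.5%) and 28 a WT site (35.9%). Of those in close pairs 56% had a WT site, where 33.3% of all genes in close pairs did. Besides Mrps12, Mrps18b, head to head with the phosphatase regulator gene Ppp1r10, had 103 reads in KO and 158 in WT (-0.67 ± 0.199). Of 31 chaperone and heat shock genes, 18 were in a close pair (58.1%), 3 had a KO site (9.68%) and 12 a WT site (38.7%). Dnaja1, which encodes a J-protein co-chaperone, had 53 in KO and 104 in WT (-1.12 ± 0.288), and Hspa1a, an inducible HSP70 gene, had 41 in KO and 99 in WT beside Hspa1l (-1.51 ± 0.335). Hspd1 and Hspe1, the classic pair of mitochondrial chaperonin genes, had a WT-only site of 53 reads, and Cct3, Cct5, Cct6a and Cct7, all subunits of the cytosolic chaperonin, had WT-only sites of 78 reads or fewer. Of 31 aminoacyl-tRNA synthetase genes 2 had a KO site (6.45%) and 8 a WT site (25.8%), of 40 proteasome genes 2 (5%) and 9 (22.5%), and of 29 splicing factor genes 3 (10.3%) and 10 (34.5%), beside the same 3.72% and 10.8% of all genes. Among the last, Hnrnpa1, which starts 38 bp from the heterochromatin gene Cbx5, had 37 reads in KO and 84 in WT (-1.44 ± 0.367).

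Among 36 genes taken from textbook examples of paired genes, 10 had a KO site (27.8%) and 24 a WT site (66.7%), but the list was chosen for its layout. Tk1, the thymidine kinase gene, and Afmid had 117 reads in KO and 190 in WT (-0.75 ± 0.182). Core histone genes, of which 53 of 67 lie in close pairs, had a KO site at 0 and a WT site at 13 (19.4%, against 10.8% of all genes). Of their genes in close pairs 24.5% had a WT site, where 33.3% of all genes in close pairs did. The strongest site was at the head-to-head pair H2bc3 and H3c3 with 72 WT reads. None of the 7 histone sites was kept, where 23.4% was the share of other peaks with the same reads, too few sites to set this apart. Zinc finger genes named Zfp had a KO site at 16 of 400 (4%, near the 3.72% of all genes) and a WT site at 33 (8.25%, against 10.8%), and their strongest pair, Zfp580 and Zfp784, had 64 reads in KO and 134 in WT (-1.19 ± 0.251).

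Genes of the Hippo pathway and YAP targets lay at such sites in shares near those of all genes. Of 36, 2 had a KO site (5.56%, against 3.72% of all genes) and 4 a WT site (11.1%, against 10.8%). Of the 8 of them in close pairs 50% had a WT site, against 33.3% of all genes in close pairs. With any YAP peak within 1 kb of a gene end counted, 50% of the 36 had one in KO and 66.7% in WT. The shares of all genes by that count were 12.8% and 37.0%. Mob1a, the activating partner of the LATS kinases, starts 22 bp from Mthfd2, a gene of mitochondrial folate metabolism, and had 52 reads in KO and 94 in WT (-0.99 ± 0.296). Tead3, one of the TEAD factors, had 33 in KO and 71 in WT (-1.39 ± 0.406). Lats1, the kinase gene, had 45 WT reads and the receptor tyrosine kinase gene Axl 49, both WT-only. Of 29 genes of the clock list, 2 had a KO site (6.90%) and 4 a WT site (13.8%), also near the shares of all genes. Any YAP peak within 1 kb was found at 48.3% of the 29 in KO and 75.9% in WT. Tspo was on the list although it encodes a mitochondrial membrane protein, and the shares above count it. It had 71 in KO and 122 in WT (-0.87 ± 0.244), and Timeless had 59 in KO and 84 in WT (-0.59 ± 0.286). Per3 had 71 WT reads and Dbp, a clock output factor, 64, and both were WT-only. Of 35 inflammatory and NF-κB genes, 2 had a KO site (5.71%) and 3 a WT site (8.57%), at Nfkbib, at Icam1 (34 in KO and 73 in WT, -1.38 ± 0.396) and at Myd88 (54 in WT, WT-only). Any YAP peak within 1 kb was found at 22.9% of the 35 in KO and 48.6% in WT.

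Markers of cell types were also counted. None of the 58 genes of the basal keratinocyte, fibroblast, Langerhans and antigen-presenting, T cell or endothelium lists had a site of this kind in either genotype, and 12 of the 58 were in a close pair, so that few of them could have one. Of 25 genes of differentiated keratinocytes, of which 2 were in a close pair, Ovol1, a transcription factor gene, had 1 site with 65 reads in KO and 150 in WT (-1.34 ± 0.245). Of 10 melanocyte genes (1 in a close pair), the melanosome gene Pmel had a pair of WT-only sites near Rab5b, with 55 and 49 reads. With any YAP peak within 1 kb of a gene end counted, 6 of 18 basal keratinocyte genes had one in KO (33.3%, against 12.8% of all genes) and 12 in WT (66.7%, against 37.0%). Of the differentiated keratinocyte genes 11 had one in KO (44%) and 17 in WT (68%). Of the melanocyte genes 10% had one in KO and 30% in WT, and of the fibroblast genes 0% and 16.7%. The Langerhans and antigen-presenting, T cell and endothelium genes had 0 in both.

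The letters of the TEAD motif grew more frequent with the strength of the site. In the RefSeq window from 250 bases before to 50 after the start, and counting only windows that held the summit, GGAATG on either strand was found at 7.20% (3.35 to 13.2) of 125 sites under 50 WT reads, 13.6% of 243 sites from 50 to 69, 19.2% of 104 from 70 to 99 and 38.8% (25.2 to 53.8) of 49 sites of 100 reads or more. Sites near 1 gene had 10.99%, 12.3%, 17.7% and 40.6% in the same classes, and 13.3% of all 17274 protein-coding promoters held the letters. Where a window held both, the letters were a median of 37.5 bp from the summit, and within 50 bp at 44 of 81 sites. By the start nearest to the summit, 12.1% (10.2 to 14.3) of all 1038 windows at closely paired genes held the letters. This was not above the 12.9% (11.9 to 13.9) near 1 gene or the 13.3% of all promoters. Of 337 windows of kept sites 18.7% (14.7 to 23.3) held them, and of 711 windows of WT-only sites 9.001% (7.001 to 11.3). Kept sites were also the stronger ones, and this split was not matched on reads.

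**Figure D5:**
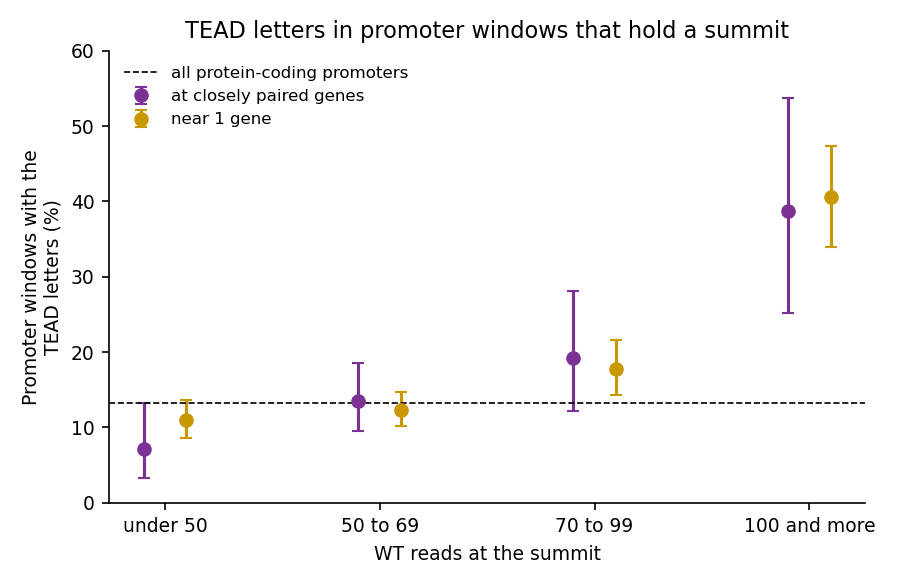
Share of RefSeq promoter windows (250 bases before to 50 after a start) that held the TEAD letters, in percent, by WT reads at the summit, for windows that contained the summit, at closely paired genes and near 1 gene. Error bars are exact 95% binomial intervals, which cover counting error only, and the dashed line is the share of all protein-coding promoters, 13.3%. The share at closely paired genes goes from 7.20% under 50 reads to 38.8% at 100 reads and more.

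The ETS letters were more frequent in windows at closely paired genes than near 1 gene. The ETS letters CCGGAA were in 41.8% (38.8 to 44.9) of 1038 windows at closely paired genes, against 28.5% (27.2 to 29.9) near 1 gene, 30.4% (26.9 to 34.0) at starts of head-to-head pairs with no WT summit within 1 kb of both genes and 19.3% of all promoters. They can overlap the TEAD letters by 4 bases. In the same windows it was 43.0% (37.0 to 49.1) under 50 WT reads and 39.2% (29.7 to 49.4) at 100 and more, with intervals that overlapped. The AP-1 letters TGANTCA were in 4.05% (2.93 to 5.43) of the windows at closely paired genes, in 5.37% (4.72 to 6.09) near 1 gene and in 7.14% of all promoters. The TATA letters TATAAA were in 4.91% (3.68 to 6.41), 6.80% (6.07 to 7.59) and 13.4% of the same 3 sets. The NRF1 letters were in 2.505% (1.64 to 3.65), 2.48% (2.04 to 2.99) and 1.34%, and the E-box CACGTG, which BMAL1 and its partners can bind, in 10.5% (8.70 to 12.5), 11.7% (10.8 to 12.7) and 7.99%. For these 4 motifs the intervals at closely paired genes and near 1 gene overlapped. The median share of G and C was 62.3% in the windows at closely paired genes and near 1 gene alike, and 56.3% in all promoters.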

How the data were processed

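YAP ChIP and input of each genotype are labelled as 4 samples, of which the peak lists of the YAP ChIPs were analysed, 1 pooled list per genotype; the inputs were not analysed here. Trimmomatic 0.36, SAMtools 1.5 and MACS2 2.1.1 were used with build mm10, per the submitters' processing notes. The sources used here give neither the aligner nor what was pooled. The authors' files give for each peak a deposited score (10 times the −log10 q), the ratio of signal to background at the summit (the authors' fold), the −log10 p and −log10 q of the authors' caller, and the summit position. With the caller's Poisson formulas, fold and p gave a whole number of reads at each summit, matching the −log10 p within 0.002 in 100% of peaks (0.397% in KO and 0.930% in WT with the scaling 3% off). The recovered scaling of ChIP to input was 0.842 in KO and 0.694 in WT. The depth in library reads is unknown, so reads are comparable only in this unit. The procedure was tested on simulated data made with the same formulas.

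Gene spans came from RefSeq, GRCm38.p6 (mm10), and strand from its promoter table. Where genes overlap or start within a peak, the site cannot be assigned to 1 of them. Kept means an overlap of at least 1 bp with a KO peak. Ratios use the strongest overlapping KO peak, subtract the even background of 9.63 reads on both sides, and are reported for at least 120 WT reads (80 for named extremes). Shares have exact 95% Clopper-Pearson intervals. Expected kept shares weight those of other peaks with the same reads. Named sites were, by rule, the 10 kept and 8 WT-only sites with most WT reads, KO-only sites, the 5 highest and lowest ratios, sites with most genes, pairs with several peaks, genes of fixed lists and the 2 sites nearest the 1 kb limit on each side. The members and lists were chosen with earlier results of these data known. Python 3.11.15, numpy 2.4.6, scipy 1.17.1, pandas 2.3.3 and matplotlib 3.10.9 were used. Alternatives changed the distance, the genes, the peak lists, the overlap rule, the read limit, the background and the motif windows.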

Additional observations from a re-analysis of the deposited data

How the results depend on the processing

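No paired analysis was possible because there was 1 pooled list for each genotype. Of 66 values recomputed under an alternative for the comparisons above, 34 stayed within the interval or 1.5 times the count and 32 did not. The number of sites was 276 in KO and 845 in WT at 0.5 kb, and 654 in KO at 2 kb. It was 164 in KO and 536 in WT in the higher-scoring 50% of each list, 21 and 100 among peaks whose fold was 8 or more, and 404 in WT when only as many WT peaks as KO peaks were taken, by score. The kept share was 28.5% in the higher-scoring 50% (40.7% for other peaks), 19.0% at the fold limit (19.4%), 73.0% with that shorter WT list (77.9%) and 20.5% with 50% reciprocal overlap (32.5%). The KO-only share was 38.3% under the reciprocal rule, 11.3% when summits had to lie within 200 bp and 0% at 0.5 kb. The head-to-head share was 80.8% in KO and 78.2% in WT at 0.5 kb, and 60.3% and 59.3% at 2 kb; head-to-head pairs at most 0.5 kb apart had a WT summit in 74.0%. The gap held 23.4% of WT summits at 2 kb. The median strength relative to other peaks was 0.942 in KO and 0.975 in WT by reads, 0.880 and 0.905 by the authors' fold, and 0.786 and 0.865 by the authors' score. By the nearest start the TEAD share was 12.1% and the ETS share 41.8%. The TEAD share was 15.5% in windows that hold a summit, 18.7% at kept sites, 9.001% at WT-only sites and 28.4% at 100 reads or more. The ETS share was 46.4% and 38.6% in the first pair of these. The kept share minus that of other peaks was -0.394 percentage points at the same score, -3.49 at the same reads and -3.66 at the same reads and background. The alternatives by score decile, by reads and background, by 100 reads, by 0.5 kb pairs and, for the arrangement, without predicted genes were chosen after seeing the data. The cause of these changes was not tested. Depth limits weak sites: none of 82 sites under 40 WT reads had a KO peak, and a site missing from a list may lie under its threshold.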
